A study of Mus musculus with 3 samples.

Results

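The genes described here are p53 (Trp53) and 9 genes that it is known to switch on: Mdm2, Cdkn1a, Ccng1, Trp53inp1, Bax, Bbc3, Phlda3, Sesn2 and Zmat3. They were chosen by name as established members of the p53 pathway, with earlier results of these data known. All 10 were found once by symbol among the 27998 genes counted. Single cells were sorted from the kidneys of Six2GFP+ mouse embryos at E14.5, when nephrons are forming, by the green fluorescence of nephron progenitors, the mesenchymal cells from which nephrons are built. The tissue of multiple litters was pooled as 3 tubes, each of which gave 1 library of the 10x Chromium version 2 kit, and the sort gated on propidium iodide and size against dead cells, debris and doublets. All 3 libraries belong to 1 group of the same strain, age and treatment, without an untreated or mutant arm, so every comparison was made between cells of the same tubes. The labels do not describe the Six2GFP construct further, and pooling leaves single embryos and litters indistinguishable. Values are unique molecular identifiers (UMIs), each a counted molecule of RNA tagged near its 3′ end.

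The transcription factor p53 is kept scarce in healthy cells because its target Mdm2, a ubiquitin ligase, marks it for destruction. Damage to DNA or other stress blocks that ligase, and p53 then binds paired decamers in DNA and raises genes that halt the cell cycle, repair or restrain growth, or start apoptosis. In the fetal kidney of the mouse, the balance of p53 and Mdm2 is known to matter for keeping nephron progenitors alive and renewing.

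The genes lie on 7 chromosomes of mm10 (GENCODE M21 coordinates, whole gene). Trp53 spans 69580359 to 69591873 on chromosome 11, plus strand, and Mdm2 117688875 to 117710758 on chromosome 10, minus strand. Cdkn1a spans 29090976 to 29100727 on chromosome 17, plus strand, and Ccng1 40748552 to 40755311 on chromosome 11, minus strand. Trp53inp1 (11156431 to 11174379, plus strand) and Sesn2 (132492032 to 132510501, minus strand) lie on chromosome 4. Bax (45461697 to 45466898, minus strand) and Bbc3 (16308393 to 16318205, plus strand) lie on chromosome 7. Phlda3 spans 135766119 to 135769136 on chromosome 1, plus strand, and Zmat3 32334792 to 32366014 on chromosome 3, minus strand. All 10 are annotated as protein-coding.

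Promoter windows, the 250 bases before a RefSeq start (GRCm38.p6), were found for 8 of the 10 members, in 11 windows. Trp53inp1 and Zmat3 had none in the table used. The p53 half-site consensus, a decamer that reads the same on both strands, was searched without mismatch. At least 1 half-site stood in 5 of the 11 member windows, those of Trp53, Mdm2, Cdkn1a, Ccng1 and Bax, and in 7.13% of all 32851 windows. Of the member windows, 1 of the 2 at Cdkn1a held 2 half-sites within 13 bases of each other, an arrangement found in 0.0639% of all windows. The same window held the tetramer CATG, repeated after a gap of 6 bases of any kind and called the core here. It also reads the same on both strands, overlaps the half-site nearer the start, and was found in 0.490% of all windows. These matches describe the letters only, and binding was not measured. The 3 windows that follow belong to the genes on which the results turn most (Cdkn1a and Ccng1) and to the feedback ligase Mdm2, and capitals mark half-sites and, at Cdkn1a, the core.
Cdkn1a, chr17:29090729-29090978, plus strand: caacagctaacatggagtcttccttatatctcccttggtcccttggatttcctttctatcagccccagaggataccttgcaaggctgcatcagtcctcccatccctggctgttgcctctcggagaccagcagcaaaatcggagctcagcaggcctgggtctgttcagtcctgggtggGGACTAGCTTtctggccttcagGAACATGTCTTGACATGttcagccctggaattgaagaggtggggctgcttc
Ccng1, chr11:40755287-40755536, minus strand: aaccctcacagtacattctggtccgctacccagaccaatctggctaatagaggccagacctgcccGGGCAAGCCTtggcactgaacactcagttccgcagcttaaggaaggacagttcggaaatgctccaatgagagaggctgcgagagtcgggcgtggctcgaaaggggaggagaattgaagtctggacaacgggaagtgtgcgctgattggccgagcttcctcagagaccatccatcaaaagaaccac
Mdm2, chr10:117710759-117711008, minus strand: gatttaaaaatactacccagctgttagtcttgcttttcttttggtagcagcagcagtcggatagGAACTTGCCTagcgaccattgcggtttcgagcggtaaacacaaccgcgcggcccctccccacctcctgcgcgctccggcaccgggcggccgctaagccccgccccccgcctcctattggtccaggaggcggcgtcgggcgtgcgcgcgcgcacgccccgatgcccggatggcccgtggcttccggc
The half-sites of Cdkn1a began 73 and 51 bases before the start that belongs to the window shown. That of Ccng1 began 185 bases and that of Mdm2 186 bases before its start. Bax carried AGGCAAGCTT 201 bases and Trp53 GGACTTGCCC 75 bases before its start. No exact half-site was found in the windows of Bbc3, Phlda3 and Sesn2, or in the other Cdkn1a window (29093519 to 29093768), which belongs to a start further downstream.

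Cells were kept with at least 1000 detected genes, at most 10% mitochondrial and at most 1% haemoglobin UMIs, which with doublet calls left out gave 7876 of 7924 barcodes. The libraries are named 1, 2 and 3 by their barcode suffix, and held 3016, 2756 and 2104 cells at medians of 15909.5, 11915 and 15789.5 UMIs. Of the kept cells, 44 had a barcode that also occurred in another library. Classes were set by raw UMIs of genes that are not members. The Lhx1-positive class (at least 1 UMI of the early nephron factor Lhx1) held 79 cells, the Wnt4-positive class (at least 1 UMI of the nephron-inducing signal Wnt4, no Lhx1) 410, and the progenitors (at least 1 UMI of Six2, none of Wnt4 or Lhx1) 5994. A further 1393 cells fell into no class. Of the Lhx1-positive cells, 36 had Six2 and no Wnt4 UMIs and so also met the progenitor rule, 47 rested on exactly 1 Lhx1 UMI, and of the Wnt4-positive cells 280 rested on exactly 1 Wnt4 UMI. The progenitor marker list (Six2, Cited1, Meox1, Eya1, Crym and Osr1) summed to 701 ± 246 CPM (UMIs per 1000000 UMIs of the summed cells) in Lhx1-positive cells, 875 ± 263 in Wnt4-positive cells and 1285 ± 258 in progenitors (SD, n = 3 libraries). Immediate early genes, which also respond to tissue handling, set library 2 apart, with 2243, 5116 and 2899 CPM in the progenitors of libraries 1, 2 and 3.

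In progenitors, all 10 members were detected in each library. Trp53 had 240, 346 and 291 CPM in libraries 1, 2 and 3, with a UMI in 94.9%, 96.8% and 98.1% of cells. Mdm2 had 55.0, 79.4 and 62.6 CPM and a UMI in 58.7%, 63.3% and 64.6% of cells. Both were highest in library 2. The values of different members are not ranked here, because capture near the 3′ end differs between genes.

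Among the cell cycle genes, Cdkn1a, which encodes the cyclin-dependent kinase inhibitor p21, had 6.15, 6.59 and 6.68 CPM, with a UMI in 7.01%, 5.57% and 6.81% of progenitors (95% Wilson intervals 6.01 to 8.17%, 4.68 to 6.62% and 5.70 to 8.12%, counting error only). Relative to its mean it differed least between libraries of the 10 members, at a mean of 6.47 ± 0.28 CPM (SD, n = 3). Ccng1, which encodes cyclin G1, had 15.0, 23.0 and 15.3 CPM and a UMI in 20.6%, 23.5% and 22.1% of cells. Trp53inp1, whose product aids p53 in arrest and apoptosis, had 9.58, 12.7 and 9.95 CPM and a UMI in 14.49%, 14.35% and 14.88% of cells.

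Of the apoptosis genes, Bax, which permeabilises the outer membrane of mitochondria, had 205, 184 and 222 CPM, and was lowest in library 2. Bbc3, which encodes the BH3-only protein Puma, had 33.1, 47.7 and 36.8 CPM, and Phlda3, a restrainer of Akt at the membrane, 113, 165 and 131 CPM. Both were highest in library 2, the library with the most immediate early RNA, and the part of that in these levels was not tested. The stress sensor Sesn2, which restrains mTORC1, had 6.18, 8.75 and 7.56 CPM, and Zmat3, an RNA-binding regulator of splicing, 8.77, 12.7 and 9.001 CPM. A progenitor held a UMI of a median of 4, 4 and 5 of the 10 members in libraries 1, 2 and 3. No cell type here is known to lack these genes, so the share of cells that free RNA alone would give was not measured.

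Variation between progenitors was described by the spread of counts over cells, and Cdkn1a exceeded counting noise in each library. After each cell was thinned to 5000 UMIs, the Fano factor (variance over mean, 1 for counting noise) was 1.23, 3.19 and 1.60 for Cdkn1a in libraries 1, 2 and 3, larger than that of 96.5%, 99.8% and 98.9% of genes measured at a mean of at least 0.01 UMIs. For Ccng1 it was 1.23, 1.4996 and 1.09, for Bbc3 1.07, 1.23 and 1.10, for Trp53inp1 1.08, 1.11 and 1.15, and for Phlda3 1.05, 1.07 and 1.11. Ccng1 was thus above these 3 in libraries 1 and 2 and below them in library 3. Trp53 had 1.02, 1.10 and 1.01, Mdm2 1.03, 1.02 and 0.996 and Bax 1.001, 1.02 and 1.03. Cdkn1a molecules were unevenly spread over cells. Of 386 progenitors with a Cdkn1a UMI, 278 had exactly 1, 39 had at least 3 and 16 at least 5.

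Whether the pathway shifts as progenitors begin to commit was asked by setting Wnt4-positive cells against progenitors. In Wnt4-positive cells Cdkn1a was higher and Bbc3 lower, and the other 8 members did not pass the test. Cdkn1a had 9.60, 9.92 and 14.2 CPM in the Wnt4-positive cells of libraries 1, 2 and 3, against 6.15, 6.59 and 6.68 CPM in their progenitors. Every Wnt4-positive value lay above every progenitor value. The log2 difference was 0.77 ± 0.22 (SE; edgeR quasi-likelihood test, library as block, adjusted p = 0.0254 over 10193 genes). Summed counts cannot tell more cells with the RNA from more RNA per cell. With cells thinned to 5000 UMIs, 3.55%, 3.88% and 4.63% of Wnt4-positive cells held a Cdkn1a UMI, against 2.61%, 2.45% and 2.58% of progenitors. These Wnt4-positive shares were 7 of 197, 4 of 103 and 5 of 108 cells, too few to settle the question. Unthinned, the shares were 12.6%, 9.71% and 16.7% against 7.01%, 5.57% and 6.81%. Median depths were 20098, 14039 and 19669.5 UMIs in Wnt4-positive cells, against 16233, 12121.5 and 15906 in progenitors.

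Bbc3 had 26.0, 43.7 and 22.3 CPM in Wnt4-positive cells, against 33.1, 47.7 and 36.8 CPM in progenitors. It was lower in all 3 libraries, although the groups overlap across libraries, with a log2 difference of -0.39 ± 0.11 (edgeR, adjusted p = 0.0263). Trp53inp1 had 5.39, 8.60 and 6.44 CPM in Wnt4-positive cells, against 9.58, 12.7 and 9.95 CPM in progenitors, without overlap. Its log2 difference of -0.71 ± 0.23 did not pass (edgeR, adjusted p = 0.0530), and passed in 4 of 13 alternatives. Trp53 was at 275 ± 50.3 CPM in Wnt4-positive cells and 292 ± 52.9 in progenitors (SD, n = 3), with a log2 difference of -0.09 ± 0.05 (edgeR, adjusted p = 0.242). The log2 differences of Mdm2, Ccng1, Bax, Phlda3, Sesn2 and Zmat3 lay between -0.19 and 0.05. G2/M genes, against which members are compared further on, summed to 1384, 1480 and 1718 CPM in Wnt4-positive cells, against 1124, 1350 and 1136 CPM in progenitors, and their part in the lower Bbc3 was not tested.

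In all, 1 of 10 members was higher, against 4.82% of all genes tested, and 1 of 10 lower, against 5.18%, so the count is near the background, with a median log2 difference of -0.07 for the members and -0.01 for all genes. DESeq2 called neither. The Cdkn1a call was lost without library 1 (adjusted p = 0.181), without library 3 (0.352), without the library block (0.319), with DESeq2 (0.220) and when at least 2 Wnt4 or Lhx1 UMIs were asked for (0.0771), where its log2 difference stayed between 0.61 and 0.88. The Bbc3 call was lost in 7 of 14 alternatives, among them those without library 1 (0.208) and without library 3 (0.374). The 6 immune markers, of which 5 had a UMI in Wnt4-positive cells, summed to 3.51, 53.6 and 1.29 CPM there, against 9.55, 1.49 and 7.52 CPM in progenitors. At least 3 UMIs of other cell types' markers were carried by 2205 cells. With all of these left out, the Cdkn1a difference was 0.83 (edgeR, adjusted p = 0.0146). Cells with fewer such UMIs stayed in, and the part of other cell types in the difference was not tested.

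Of the wider list of 28 p53 targets, 23 were tested, 2 were higher and 4 lower in Wnt4-positive cells. Over all genes tested, 4.82% were higher and 5.18% lower. The 4 with the smallest adjusted p were the stress-induced mTORC1 inhibitor Ddit4 (log2 -0.91 ± 0.13, adjusted p = 7.6e-05), the antiproliferative gene Btg2 (-0.69 ± 0.11, 0.000138), the growth-arrest gene Gadd45a (-0.47 ± 0.09, 0.00142) and Rps27l, which encodes a ribosomal protein (0.19 ± 0.04, 0.00759; all edgeR). Btg2 is also on the immediate early list, of which 8 of the 10 genes tested were lower in Wnt4-positive cells, against 5.18% of all genes. The part of immediate early RNA in the lower Ddit4 and Gadd45a was not tested. Of 13 tested regulators of p53 (kinases, ligases and cofactors such as Hipk2 and Mdm4), none passed with edgeR or DESeq2, and 1 had an unadjusted p under 0.05 with edgeR. Nearest was the kinase Hipk2, at 0.29 ± 0.10 (adjusted p = 0.0810).

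**Figure D1:**
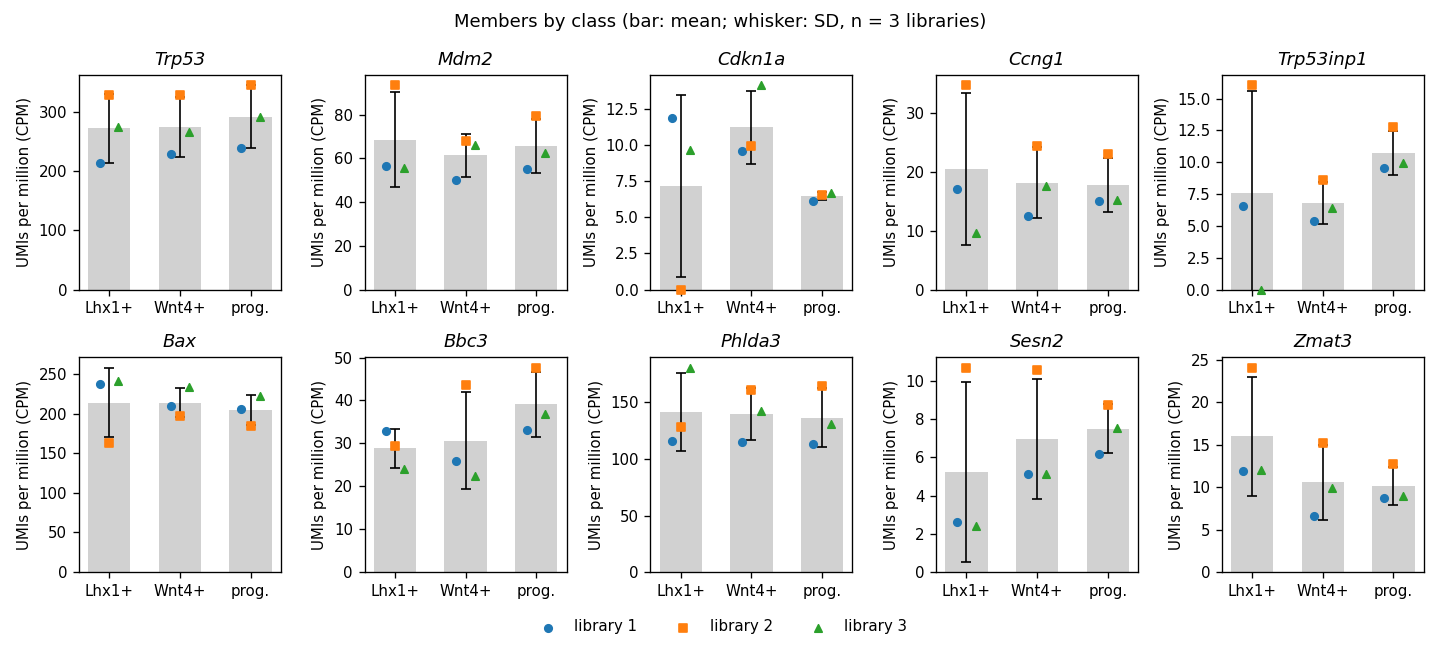
Level of each member in Lhx1-positive cells, Wnt4-positive cells and progenitors, in CPM. Bars are means, whiskers SD over 3 libraries (cut at 0 for Trp53inp1 in Lhx1-positive cells) and points single libraries. Cdkn1a stands at 9.60 to 14.2 CPM in Wnt4-positive cells, above 6.15 to 6.68 CPM in progenitors, while its Lhx1-positive values spread from 0 to 11.9 CPM.

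No member passed the test in Lhx1-positive cells, the smallest class. Against Wnt4-positive cells, 1.17% of all genes were called, and against progenitors 5.05% (3.28% higher, 1.78% lower), and none of the 10 members in either (edgeR; none at an unadjusted p under 0.05 and none with DESeq2). Both contrasts use the same Lhx1-positive sums. Zmat3 had 11.9, 24.1 and 12.1 CPM in Lhx1-positive cells, against 6.56, 15.2 and 9.88 CPM in Wnt4-positive cells and 8.77, 12.7 and 9.001 CPM in progenitors. The Lhx1-positive value lay above its own library's in all 3 libraries in both contrasts, with log2 differences of 0.66 ± 0.36 and 0.61 ± 0.33 (edgeR, adjusted p = 0.634 and 0.372).

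These values rest on few molecules. Cdkn1a had 11.9, 0 and 9.64 CPM in Lhx1-positive cells, from 9, 0 and 4 UMIs, and the count of 0 allows up to 8.02 CPM at that depth (3 UMIs, counting error only). Trp53inp1 had 6.59, 16.04 and 0 CPM there, and its 0 in library 3 allows up to 7.23 CPM. Bbc3 had 33.0, 29.4 and 24.1 CPM in Lhx1-positive cells, against 33.1, 47.7 and 36.8 CPM in progenitors, a log2 difference of -0.35 ± 0.22 (edgeR, adjusted p = 0.481). No detection limit was measured for this class of 79 cells. All 8 ureteric markers had a UMI in Lhx1-positive cells, and they summed to 55.4, 291 and 140 CPM, against 7.26, 8.60 and 9.45 CPM in Wnt4-positive cells, and their part in these levels was not tested.

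Among the wider targets, Rps27l was higher in Lhx1-positive cells against Wnt4-positive cells (log2 0.31 ± 0.06, adjusted p = 0.00539) and against progenitors (0.50 ± 0.06, 4.0e-06; edgeR), the only 1 of 23 called in each. Of the regulators, the acetyltransferase Ep300 was lower against progenitors (-1.04 ± 0.29, edgeR adjusted p = 0.0408), and did not pass against Wnt4-positive cells (-1.18 ± 0.31, 0.0657). That made 1 and 0 of 13 called, where 1.78% and 0.167% of all genes were lower. With DESeq2, 1 wider target was higher in each contrast, and no regulator was called in either.

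Because several of these genes stop the cell cycle, progenitors were also compared by cycle phase, as the 25% of cells of each library with the largest share of UMIs in 11 G2/M genes (Aurka, Birc5, Ccnb1, Cdc20, Cenpf, Hmmr, Mki67, Plk1, Top2a, Tpx2 and Ube2c) against the 25% with the smallest. The groups held 541, 538 and 418 cells each. None of the 11 is a member. In G2/M-high cells 7 members were lower, Bax was higher, and Trp53 and Mdm2 did not pass. Trp53inp1 had 3.27, 5.24 and 3.50 CPM in G2/M-high cells, against 13.1, 19.4 and 14.6 CPM in G2/M-low cells. The groups lay far apart, and the log2 difference was -1.90 ± 0.15 (edgeR, adjusted p = 5.3e-35). Bbc3 had 18.5, 26.2 and 19.5 CPM in G2/M-high cells, against 45.6, 62.5 and 48.5 CPM in G2/M-low cells, again without overlap, at a log2 difference of -1.22 ± 0.08 (adjusted p = 5.0e-55). Both calls held in 14 of 14 alternatives, with log2 differences of -2.01 to -1.18 for Trp53inp1 and -1.29 to -0.91 for Bbc3.

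Phlda3 had 104, 139 and 115 CPM in G2/M-high cells, against 123, 184 and 146 CPM in G2/M-low cells, lower in each library, at a log2 difference of -0.26 ± 0.04 (edgeR, adjusted p = 2.7e-10). It missed the threshold only without the library block (adjusted p = 0.0572). Sesn2 had 5.34, 6.76 and 5.26 CPM in G2/M-high cells, against 6.70, 11.5 and 8.75 CPM in G2/M-low cells (log2 -0.54 ± 0.16, adjusted p = 0.00211). Zmat3 had 7.49, 10.8 and 7.55 CPM in G2/M-high cells, against 10.7, 15.7 and 9.08 CPM in G2/M-low cells (log2 -0.39 ± 0.14, adjusted p = 0.00937). Both were lower in all 3 libraries. Without library 2, Sesn2 (adjusted p = 0.0581) and Zmat3 (0.0996) no longer passed, nor did Zmat3 without library 1 (0.0610), and the calls held in 11 of 14 alternatives for Sesn2 and 8 of 14 for Zmat3.

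The classical arrest gene Cdkn1a differed less evenly. It had 6.20, 3.71 and 4.93 CPM in G2/M-high cells, against 4.89, 9.86 and 10.5 CPM in G2/M-low cells, so that library 1 ran the other way. The log2 difference was -0.62 ± 0.17 (edgeR, adjusted p = 0.000878), and it was not called without library 2 (-0.33, 0.193) or without library 3 (-0.41, 0.168), and was larger without library 1 (-1.17), with the call kept in 9 of 13 alternatives. Ccng1 had 14.7, 20.1 and 13.1 CPM in G2/M-high cells, against 14.7, 28.4 and 18.5 CPM in G2/M-low cells, a log2 difference of -0.27 ± 0.10 (adjusted p = 0.0205). Its call was lost without library 2 (-0.16, 0.334), without library 3 (-0.22, 0.149) and without the 7 cells described further on (-0.17, 0.161), and held in 5 of 14 alternatives.

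Trp53 had 239, 338 and 299.5 CPM in G2/M-high cells, against 242, 342 and 298 CPM in G2/M-low cells, and a fitted log2 difference of 0.06 ± 0.03 (edgeR, unadjusted p = 0.0488, adjusted p = 0.0867). Mdm2 had 56.8, 82.3 and 60.8 CPM in G2/M-high cells, against 57.2, 79.0 and 66.5 CPM in G2/M-low cells (log2 0.05 ± 0.05, adjusted p = 0.473). Bax had 204, 184 and 230 CPM in G2/M-high cells, against 203, 185 and 213 CPM in G2/M-low cells, and its log2 difference of 0.11 ± 0.03 (adjusted p = 0.00383) was lost with library totals as scaling (0.04, adjusted p = 0.340) and without library 3 (0.06, 0.248), and held in 9 of 14 alternatives.

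Calls were made for 51.9% of all 11661 genes tested, against a spread taken from all genes rather than from each gene's own libraries. Lower calls covered 7 of 10 members, against 26.0% of all genes, and higher calls 1 of 10, against 25.9%. The median log2 difference of the members was -0.33, that of all genes -0.02. With library totals in place of TMM scaling, calls over all genes split into 2362 higher and 3915 lower, against 3015 and 3034 with TMM, while all 7 lower members kept their direction in every alternative run. G2/M-high cells were deeper, with medians of 21473, 17041 and 21460.5 UMIs against 14562, 11151.5 and 15060.5 UMIs in G2/M-low cells. With cells thinned to 5000 UMIs and the groups rebuilt, Trp53inp1 (-1.18, adjusted p = 0.000948), Bbc3 (-1.28, 2.0e-12) and Phlda3 (-0.24, 0.0226) remained lower, and Ccng1, Sesn2 and Zmat3 were not called. Without the library block the calls of Cdkn1a (adjusted p = 0.232), Ccng1 (0.318), Zmat3 (0.136) and Bax (0.718) were lost too. DESeq2 called 3 members, all lower, which were Trp53inp1, Bbc3 and Phlda3. Immediate early RNA was at 2094, 4104 and 2613 CPM in G2/M-high cells, against 2470, 5962 and 3220 CPM in G2/M-low cells, and its part in the member differences was not tested.

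**Figure D2:**
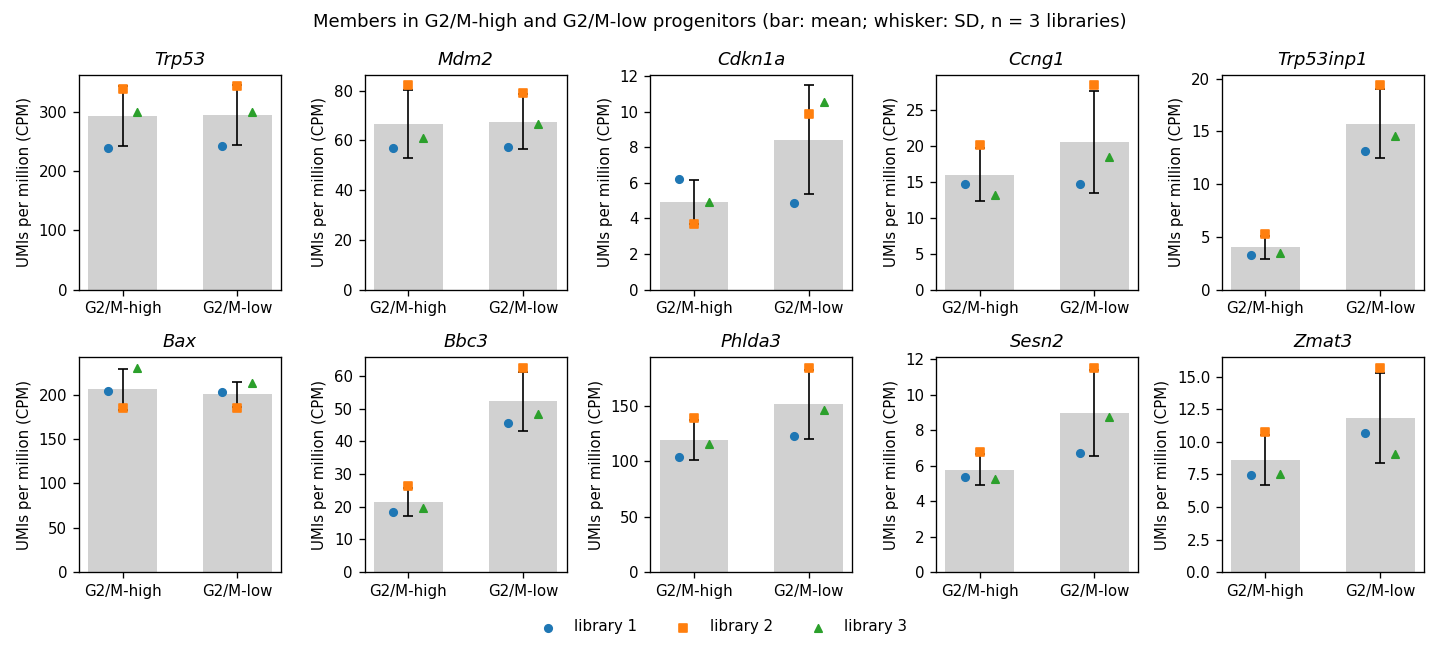
Level of each member in G2/M-high and G2/M-low progenitors, in CPM. Bars are means, whiskers SD over 3 libraries and points single libraries. Trp53inp1 (3.27 to 5.24 against 13.1 to 19.4 CPM) and Bbc3 (18.5 to 26.2 against 45.6 to 62.5 CPM) stand apart in every library, and the Trp53 and Mdm2 groups overlap.

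Over 4 bins of equal cell number by G2/M share, from low to high, Trp53inp1 averaged 15.7, 13.5, 12.8 and 4.004 CPM and Bbc3 52.2, 49.7, 41.7 and 21.4 CPM (n = 3 libraries each). Most of the difference thus lay in the highest bin. Trp53 averaged 294, 292, 291 and 292 CPM. Ranked instead by the share of 14 S phase genes, Trp53inp1 averaged 14.02, 14.2, 10.6 and 6.02 CPM, Bbc3 47.8, 44.8, 40.8 and 27.5 CPM and Sesn2 8.35, 9.71, 7.57 and 5.13 CPM. Trp53 ran upward over these bins, at 266, 286, 293 and 314 CPM, in each of the 3 libraries. These S phase values are given without a test.

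**Figure D3:**
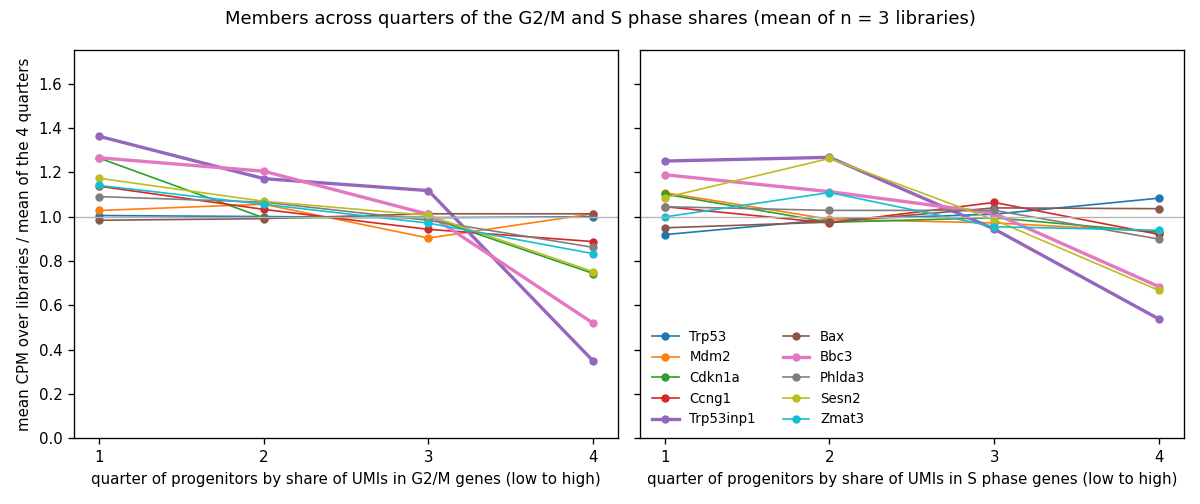
Mean level of each member over 4 equal bins of progenitors ranked by the share of their UMIs in G2/M genes (left) or S phase genes (right), divided by its mean over the bins, on a linear scale. Lines join means of 3 libraries. Trp53inp1 and Bbc3 (thick lines) are lowest in the highest bin of both, while Trp53 lies within 291 to 294 CPM on the left and runs from 266 to 314 CPM on the right.

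Of 24 wider p53 targets tested, 8 were higher and 8 lower in G2/M-high cells, counts to be read against 25.9% higher and 26.0% lower over all genes, with a median log2 difference of 0.00. The 4 with the smallest adjusted p were Btg2 (-0.81 ± 0.03, 1.3e-145), Ckap2 (2.42 ± 0.10, 2.5e-120), Gtse1 (5.35 ± 0.25, 1.0e-102) and the kinase gene Plk2 (-0.81 ± 0.06, 1.7e-38; edgeR). Ckap2 and Gtse1 encode proteins of the mitotic spindle and microtubules and are made in G2 and mitosis in most dividing cells. Of 13 regulators tested, 7 were higher and 1 lower, against the same shares of all genes, led by the checkpoint kinases Chek2 (1.94 ± 0.13, 7.5e-49) and Chek1 (0.78 ± 0.09, 8.2e-19), the corepressor Trim28 (0.24 ± 0.03, 4.0e-18) and the deubiquitinase Usp7 (0.53 ± 0.07, 7.2e-12).

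To see whether the members move together from cell to cell, progenitors with at least 1 Cdkn1a UMI (152, 120 and 114 cells) were set against those with none (2015, 2034 and 1559 cells). Cdkn1a chose the cells and is no result. Ccng1 had 25.0, 41.3 and 20.01 CPM in Cdkn1a-positive cells, against 14.1, 21.8 and 14.9 CPM in Cdkn1a-negative cells. It was higher in all 3 libraries, at a log2 difference of 0.75 ± 0.13 (edgeR, adjusted p = 0.000583), and was the only member of the 9 tested that passed, against 1.80% of all 12421 genes called, 1.20% higher and 0.596% lower. The call was lost without the library block (adjusted p = 0.782), where 2 genes were called in all.

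The other 8 did not pass. Phlda3 had 130, 180 and 145 CPM in Cdkn1a-positive cells, against 112, 164 and 130 CPM in Cdkn1a-negative cells, above in each library (log2 0.17 ± 0.05, adjusted p = 0.113). Bbc3 had 30.5, 60.7 and 49.1 CPM in Cdkn1a-positive cells, against 33.3, 46.8 and 35.8 CPM in Cdkn1a-negative cells (0.23 ± 0.10, 0.346), and passed without library 1 (0.41, 0.0405). Trp53inp1 (-0.28 ± 0.23, 0.704) was called lower without library 2 (-0.87, 0.0398). Trp53, Mdm2, Bax, Sesn2 and Zmat3 had log2 differences between -0.10 and 0.27 (all edgeR). When at least 3 Cdkn1a UMIs were asked for, in 13, 11 and 15 cells, Bbc3 (1.304, adjusted p = 6.8e-05) and Phlda3 (0.61, 0.0358) passed as well. These 39 cells include the 7 cells described next, and this contrast was not refitted without them.

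Of the wider targets, Aen, an exonuclease gene of the apoptosis response, was higher in Cdkn1a-positive cells (0.44 ± 0.08, adjusted p = 0.00095) and Sesn3 lower (-0.34 ± 0.08, 0.0143, both edgeR). These were 2 of 24 tested, against 1.20% higher and 0.596% lower over all genes. DESeq2 gave an adjusted p to 14 wider targets, and called 1 higher and none lower. None of 13 regulators passed with edgeR or DESeq2, and 2 had an unadjusted p under 0.05 with edgeR. S phase genes were higher for 8 of 14, against 1.20% of all genes tested. A deeper cell is likelier to hold a Cdkn1a UMI, and Cdkn1a-positive cells were deeper on average in each library. Their UMIs summed to 2918277, 1695724 and 2098974 over 152, 120 and 114 cells. Those of Cdkn1a-negative cells summed to 34138668, 26548579 and 26342495 over 2015, 2034 and 1559 cells. All 6 immune markers had a UMI in Cdkn1a-positive cells and summed to 57.6, 2.36 and 0.953 CPM, against 5.45, 1.43 and 8.05 CPM in Cdkn1a-negative cells. All 5 endothelial markers did too, and summed to 1.03, 1.18 and 32.9 CPM in Cdkn1a-positive cells, against 1.03, 1.28 and 1.02 CPM in Cdkn1a-negative cells. With cells carrying other types' markers left out by the cut used above, the Ccng1 difference was 0.88 (edgeR, adjusted p = 2.2e-07). Cells with fewer such UMIs stayed in here too.

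Part of the Ccng1 difference came from 7 cells, chosen after the values were seen. They were the progenitors with at least 5 UMIs of both Cdkn1a and Ccng1, 2 in library 1, 3 in library 2 and 2 in library 3, of 5994. Their Cdkn1a and Ccng1 counts were 9 and 11, 8 and 8, 12 and 6, 13 and 11, 7 and 10, 9 and 5, and 6 and 13. The 7 cells held 19, 27 and 18 of the 73, 70 and 42 Ccng1 UMIs of Cdkn1a-positive progenitors in libraries 1, 2 and 3. Without them the Ccng1 log2 difference was 0.16 (edgeR, adjusted p = 0.746), that of Bbc3 0.03 (0.948), and 222 genes were called in all, against 223 with them. Since high Ccng1 chose the cells, leaving them out lowers the Ccng1 difference by construction. Beside these 7 cells, 7 others had at least 5 Cdkn1a UMIs and no Ccng1 UMI.

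The 7 cells also held more RNA of members that did not choose them. Bbc3 was at 349.7 CPM (42 UMIs, exact 95% Poisson interval 252 to 473 CPM), against 38.2 CPM in the other progenitors, and had a UMI in 7 of 7 cells. By library it stood at 278, 570 and 274 CPM, each above any progenitor library. Phlda3 was at 449.6 CPM (338 to 587), against 134 CPM, and Bax at 558 CPM (432 to 708), against 204 CPM. Mdm2 was at 133 CPM (76.1 to 216), against 64.6 CPM, and Trp53 at 491 CPM (374 to 634), against 287 CPM, although Trp53 was high in library 2 alone (278, 1139 and 274 CPM). Trp53inp1 (66.6 against 10.6 CPM), Sesn2 (58.3 against 7.31 CPM) and Zmat3 (58.3 against 9.95 CPM) rested on 8, 7 and 7 UMIs. These intervals cover counting error only, and since the cells were picked for 2 p53 targets the values are a description with no test.

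Among the wider targets the same cells had Aen at 216 CPM (141 to 317), against 53.6 CPM, and Plk2 at 199.8 CPM (128 to 297), against 55.7 CPM, but Gadd45a at 41.6 CPM (13.5 to 97.1), against 50.3 CPM. Of the progenitor markers, Six2 was at 158 CPM, against 164 CPM, and Cited1 at 66.6 CPM (28.8 to 131), against 175.5 CPM, with a UMI in 3 of the 7 cells. No cell had an immune marker UMI. Depth was 8931 to 41904 UMIs and mitochondrial share 2.81% to 3.85%. The deepest cell, in library 1, held 105 UMIs of G2/M genes and had a doublet score of 0.292, against 0.0168 to 0.0311 in the other 6, of which 5 held at most 2 G2/M UMIs. The immediate early gene Fos was at 1390 CPM, against 753 CPM, and its part in these values was not tested.

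**Figure D4:**
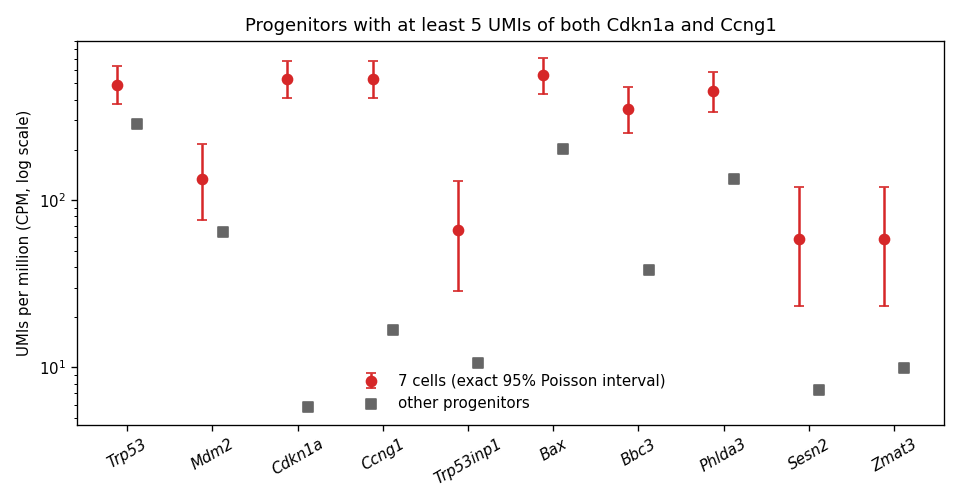
Level of each member, in CPM on a log scale, in the 7 progenitors with at least 5 UMIs of both Cdkn1a and Ccng1 (circles, exact 95% Poisson intervals for counting error) and in all other progenitors (squares). Cdkn1a and Ccng1 chose the cells. Bbc3 lies at 349.7 against 38.2 CPM, and every other member is also higher in the 7 cells.

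Pairwise correlation over progenitors was weak. Pearson's r of log values (counts per 10000 per cell) was computed for 45 pairs in each library, over 2167, 2154 and 1673 cells that share depth and library, and is given as a description. The median over pairs of the mean r of 3 libraries was 0.017, and 25 pairs were positive and 2 negative in every library. After thinning these counts were 14 and 2, and without the 7 cells 15 and 5, and the share of all gene pairs with 1 sign in every library was not computed. Among all pairs of 8685 to 8888 genes, the 95th percentile of r was 0.0494, 0.0471 and 0.0523. The highest member pair was Cdkn1a and Ccng1, at 0.0814, 0.149 and 0.0611, and after thinning at 0.129, 0.421 and 0.0278. Without the 7 cells it was 0.0368, 0.0263 and -0.0262, a fall that follows from choosing those cells for both genes.

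The proapoptotic pair of Trp53inp1 and Bbc3, both lower in G2/M-high cells, had 0.0480, 0.0639 and 0.106, and 0.0470, 0.0532 and 0.103 without the 7 cells. Thinned, the same pair stood at 0.0327, 0.0364 and 0.0344, below the 95th percentile of thinned gene pairs (0.0387, 0.0390 and 0.0437). Bbc3 and Phlda3 had 0.0437, 0.108 and 0.0321. Trp53 correlated with none of its targets above 0.02 in the mean, with Mdm2 at 0.0210, 0.0136 and 0.0243. The pairs negative in every library were Trp53inp1 with Bax (-0.0474, -0.0331 and -0.0209) and Mdm2 with Phlda3 (-0.0354, -0.00313 and -0.0326).

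**Figure D5:**
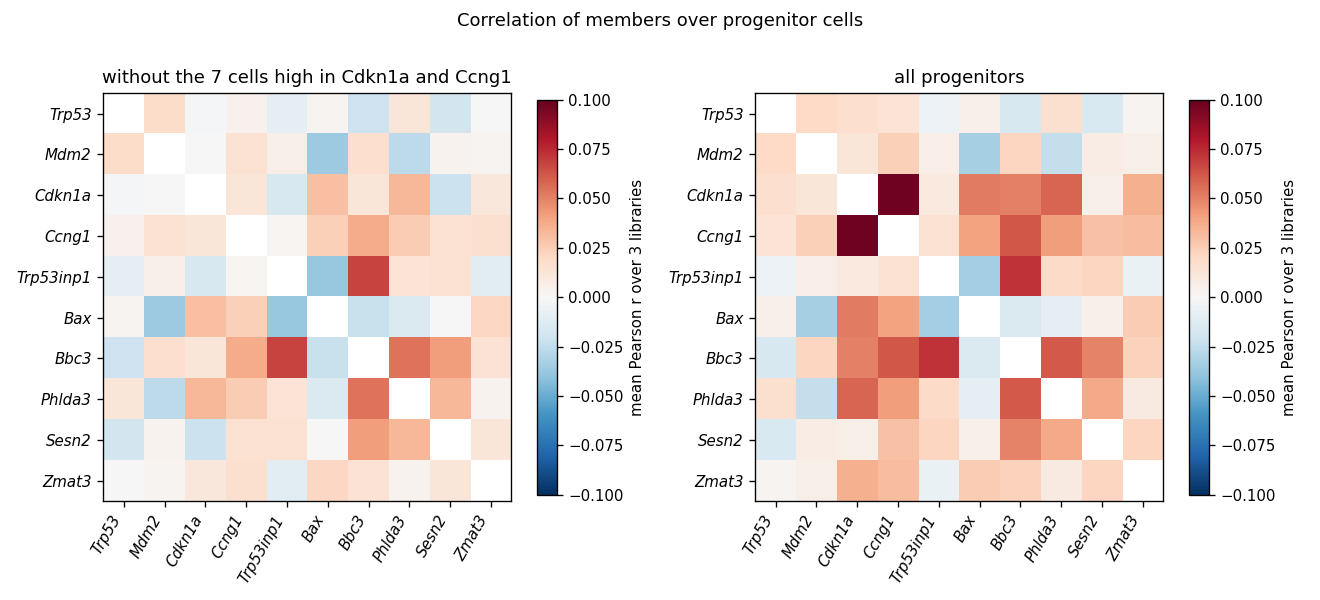
Mean Pearson's r over 3 libraries for each pair of members over progenitor cells, on a colour scale from -0.1 to 0.1, without the 7 cells high in Cdkn1a and Ccng1 (left) and in all progenitors (right). The dark square of Cdkn1a and Ccng1 on the right fades on the left by construction, since both genes chose the cells left out. Trp53inp1 with Bbc3, which did not choose them, keeps its colour.

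Outside the members, the genes most like Cdkn1a by mean r over the 3 libraries, among genes found in at least 10% of progenitors, were Fgf8, a growth factor of early nephrons (0.126), Aldh1a2, which makes retinoic acid (0.110), Lhfp (0.0897), Aen (0.0889) and Serpine2 (0.0877). For Ccng1 they were Jun (0.0541), Psrc1 (0.0524), Dhx16 (0.0504), Map1a (0.0503) and Rnf121 (0.0485). For Mdm2 they included the immediate early genes Junb (0.0682), Ier2 (0.0610), Btg2 (0.0599) and Egr1 (0.0587). Of the 14 genes named here, Aen and Btg2 are on the wider list of p53 targets.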

How the data were processed

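Counts were deposited as 1 sparse matrix of UMIs per gene and cell, joined over 3 libraries by barcode suffix. The authors made these counts on the mm10 build using Cell Ranger 1.3.1, which the submitters' processing notes name. Other filters are not given in the sources used here, nor which label belongs to which suffix. The text table deposited beside the matrix was not used.

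Scrublet's method (scanpy 1.11.5, per library) called 20 of 7898 cells (0.253%), too few for the caller to have worked, so doublets are taken as present. The sums per library and class ranged from 373985 to 37056945 UMIs. Sums were tested with edgeR 4.0.16 (quasi-likelihood, TMM, filterByExpr, library as block, two-sided, Benjamini-Hochberg over all genes, threshold 0.05) in R 4.3.3, after the code was tested on simulated data. Classes come from the same tubes, which is why the library is a block. In the class and Cdkn1a comparisons, p-values measure how evenly a difference between groups of cells repeats within 3 tubes of pooled litters. The spread used there was estimated partly from all genes. In the G2/M comparison the p-values equal the normal tail of the difference over its SE, so the spread came from all genes alone. A small p there does not show that a gene's difference was even over the tubes, as with Cdkn1a. The block takes up differences in level between tubes. No p-value here measures the spread between embryos or litters, and the tubes may be technical repeats. DESeq2 1.42.0, other filters, thinning and leaving out libraries or cells were alternatives. The members and gene lists were chosen with earlier results of these data known. All 10 members are named, with up to 4 genes of smallest adjusted p from the wider target and regulator lists per comparison, and the 5 genes most like each of Cdkn1a, Ccng1 and Mdm2, of which 1 for Mdm2 is not reported here. Of the regulator list of 17, Trp53rk was not matched. Further genes named in the 7 cells were chosen after their values were seen. Gene positions are from GENCODE M21 and promoter windows from RefSeq (GRCm38.p6).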

Additional observations from a re-analysis of the deposited data

How the results depend on the processing

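The number of genes called moved with the setting. For Wnt4-positive cells against progenitors it was 1019, and 86 without the library block, 384 with DESeq2, 116 with cells thinned to 5000 UMIs and 292 to 1232 when 1 library was left out. For Lhx1-positive against Wnt4-positive cells it was 119, and 69 without the block, 255 with no filter on low counts, 5 thinned, 42 without cells carrying other types' markers, 350 without cells meeting both rules and 35 to 180 without 1 library. For Lhx1-positive cells against progenitors it was 515, and 188, 825, 53, 93 and 937 under the same settings, 790 with at least 2 UMIs asked for and 123 to 795 without 1 library. For G2/M-high against G2/M-low progenitors it was 6049, and 2824 without the block, 3002 with DESeq2, 2535 thinned and 5109 to 5223 without 1 library. For Cdkn1a-positive against Cdkn1a-negative progenitors it was 223, and 2 without the block, 45 with DESeq2, 381 with no filter, 11 thinned, 50 with at least 3 Cdkn1a UMIs and 136 to 340 without 1 library. The cause of these shifts was not tested, except that thinning removes UMIs by construction.

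Over the 10 members and 5 comparisons, 615 alternative fits left the outcome, called or not called, as it was. A call was lost in 42 and gained in 10, and no called difference changed sign. The 615 include members called in neither fit, also where their sign changed, so they do not measure the share of calls kept. Cdkn1a was too sparse to be tested after thinning in the class and G2/M comparisons. Other sparse members also dropped out of settings in the class comparisons. Ccng1, Trp53inp1 and Zmat3 had 13 alternatives there and Sesn2 12, against 14 for Trp53. Leaving out the 7 cells was chosen after seeing the data. Averaging over cells moved 1 of 30 class levels beyond its SD, that of Cdkn1a in progenitors (6.77 CPM). The median pair correlation was 0.0127 after thinning and 0.0170 before.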

Other observations

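Cells with no class name included 22, 25 and 23 cells in libraries 1, 2 and 3 with at least 3 UMIs of immune markers (Ptprc, Tyrobp, Fcer1g, C1qb, Lyz2 and Cx3cr1). Cdkn1a stood at 188, 460 and 461 CPM in them, against 3.48, 5.35 and 4.46 CPM in the other cells without a class. Ccng1 was at 124 ± 45.5 CPM in the immune-marker cells and 18.7 ± 3.68 in the others, and Bax at 344 ± 27.8 and 194 ± 9.98 CPM (SD, n = 3). Trp53 ran the other way, at 139.7 ± 51.3 CPM in the immune-marker cells and 290.4 ± 61.3 in the others, as did Phlda3, at 26.5 ± 19.1 and 131 ± 19.4 CPM. Mdm2 was at 60.9 ± 25.9 and 71.3 ± 13.3 CPM. The split by immune markers was chosen after the data were seen, and no test was run.

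Barcodes with 10 or more A and T bases of 16 were also set beside the rest of the progenitors. Cdkn1a had 7.90 ± 1.05 CPM in those cells, 6.34 ± 0.55 with 7 to 9 such bases and 5.83 ± 2.41 with 6 or fewer (SD, n = 3). The first set ranged from 6.98 to 9.04 CPM and the second from 5.95 to 6.97, without overlap, while the third ranged from 3.46 to 8.28. No test was run on these sets.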
